A study of Mus musculus with 4 samples.

Results

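The 10 imprinted genes examined here were the maternally expressed noncoding RNA genes Meg3, Rian and Mirg, the growth regulator genes Dlk1, Igf2, Igf2r and Cdkn1c, the noncoding RNA genes H19 and Kcnq1ot1, and the zinc finger gene Peg3. They were read by gene symbol from the count files, where all 10 of 10 were present among 24391 genes, and all 10 passed the filter on low counts that left 16001 genes for testing. RNA was sequenced from mouse lung tumours in 2 groups of 2 samples. The K-Ras group carried K-RasLSL-G12D, a mutant K-Ras allele kept silent by a lox-stop-lox cassette until Cre recombinase removes it, and the K-Ras Mll4-/- group carried the same allele together with Mll4fl/fl, floxed copies of the histone methyltransferase gene Mll4 (now Kmt2d). All 4 samples therefore shared the K-Ras allele and depletion of CD45-bearing leukocytes before RNA extraction, and the labels state neither how Cre was delivered nor the strain, age or number of mice behind a sample. The list was built around Meg3, which was chosen by its CPM values in these samples because they differed between replicates, so the values of Meg3 are given as a description without a test, and the question asked of the others was whether the neighbours of Meg3 differed between replicates in the same way.

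Imprinted genes are transcribed mainly from the copy inherited from a single parent, a choice held by DNA methylation at imprinting control regions that act over clusters of genes. In the Dlk1-Dio3 cluster on chromosome 12 the maternal copy makes the noncoding RNAs Meg3, Rian and Mirg, which lie in the same orientation and carry many small nucleolar RNAs and microRNAs, while the paternal copy makes Dlk1, Rtl1 and Dio3. In the H19-Igf2 and Kcnq1 clusters on chromosome 7 the growth factor gene Igf2 and the antisense RNA Kcnq1ot1 are paternally expressed, and H19 and the cell cycle inhibitor gene Cdkn1c are maternally expressed. Most of these genes are high in the fetus and low in adult tissue. The counts are totals over both parental copies, so they do not resolve allelic expression, and in bulk tissue fewer cells of a type and less RNA per cell cannot be told apart.

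The values below turn on the 3 maternal transcripts of chromosome 12, so the 300-base windows around the annotated starts of Meg3, Rian and Mirg are shown first. They run from upstream of the start to 50 bases after it, on the plus strand of GRCm38.p6, and come from RefSeq. In the window of Meg3, capitals mark the cyclic AMP response element TGACGTCA, which begins 57 bases before the start, and matches to the TATA box letters TATAAA on both strands. In the window of Mirg, capitals mark the mature arms of miR-668, whose hairpin lies there.
Meg3 (chr12:109540746-109541045): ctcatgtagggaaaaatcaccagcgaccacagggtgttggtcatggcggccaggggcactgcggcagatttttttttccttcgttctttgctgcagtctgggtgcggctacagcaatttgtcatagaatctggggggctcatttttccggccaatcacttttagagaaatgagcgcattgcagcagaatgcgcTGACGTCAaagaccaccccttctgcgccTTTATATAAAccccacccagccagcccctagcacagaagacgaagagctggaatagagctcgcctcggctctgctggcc
Rian (chr12:109603695-109603994): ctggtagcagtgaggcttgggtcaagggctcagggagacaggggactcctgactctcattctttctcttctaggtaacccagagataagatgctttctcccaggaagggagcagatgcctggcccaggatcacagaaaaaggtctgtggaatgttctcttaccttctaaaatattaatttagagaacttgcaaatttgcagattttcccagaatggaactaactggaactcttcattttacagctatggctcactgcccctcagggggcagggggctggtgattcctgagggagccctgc
Mirg (chr12:109734731-109735030): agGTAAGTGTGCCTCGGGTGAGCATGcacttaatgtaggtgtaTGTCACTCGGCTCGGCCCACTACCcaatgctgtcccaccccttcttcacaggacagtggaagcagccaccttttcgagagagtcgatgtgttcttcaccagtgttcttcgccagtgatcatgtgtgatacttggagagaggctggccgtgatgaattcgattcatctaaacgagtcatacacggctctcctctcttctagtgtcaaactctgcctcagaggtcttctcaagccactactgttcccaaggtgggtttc

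Both strands of each window were searched for 3 motifs that do not overlap one another in the Meg3 window apart from the paired TATAAA matches. TGACGTCA was found in the Meg3 window and in that of Peg3, and 1.79% of all 32851 windows of this length held it. TATAAA was found in the Meg3 window shown and in no other window of the 8 members matched, against 13.6% of all windows. TGCCGC, the core letters bound by the imprint-keeping factor ZFP57, was found in the Meg3 window and in 1 of the 4 windows of Igf2, against 11.6% of all windows. A window at a downstream start of Meg3 held none of the 3 motifs and 1 CG, against 13 CG in the window shown. The windows of Rian and Mirg held none of the 3, which says only that these letters are not there.

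The cluster also holds 61 rows for microRNA hairpins in the count files, of which 58 had a hairpin sequence in the RefSeq table. A read on a hairpin row is a fragment of the long transcript or its precursor, and mature microRNAs were not measured. The mature arms of the 5 hairpins with the most reads are shown with the seed, bases 2 to 8, in capitals, because these rows had the most reads, although few (0 to 37 per sample). The arms of miR-3070 named 3p and 2-3p share the seed GGUGCUA, and no other seed was shared.
miR-3070-5p: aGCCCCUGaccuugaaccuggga
miR-3070-3p: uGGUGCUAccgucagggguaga
miR-3070-2-3p: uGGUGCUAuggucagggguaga
miR-1193-5p: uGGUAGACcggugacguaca
miR-1193-3p: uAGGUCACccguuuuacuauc
miR-668-5p: gUAAGUGUgccucgggugagcaug
miR-668-3p: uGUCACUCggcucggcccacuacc
miR-341-5p: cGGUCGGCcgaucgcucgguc
miR-341-3p: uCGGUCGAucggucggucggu

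Each sample had between 26683033 and 36677987 reads assigned to genes, and the deeper sample of each group was replicate 2. Levels below are therefore read counts scaled by TMM to a common library size and given as CPM, which allows for differences in depth, and 3 reads, taken as the floor, correspond to 0.083 to 0.114 CPM. Kmt2d, the targeted gene, was at 395 and 526 CPM in the K-Ras samples and at 367 and 317 CPM in the K-Ras Mll4-/- samples (log2 fold change -0.43, SE 0.21, edgeR quasi-likelihood adjusted p = 0.302), so its loss is taken from the labels. Sftpc, the surfactant protein C gene of alveolar type 2 cells, was between 5748 and 10747 CPM, and Ptprc, the gene of CD45, was still between 142.8 and 274.5 CPM after the depletion.

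**Figure D1:**
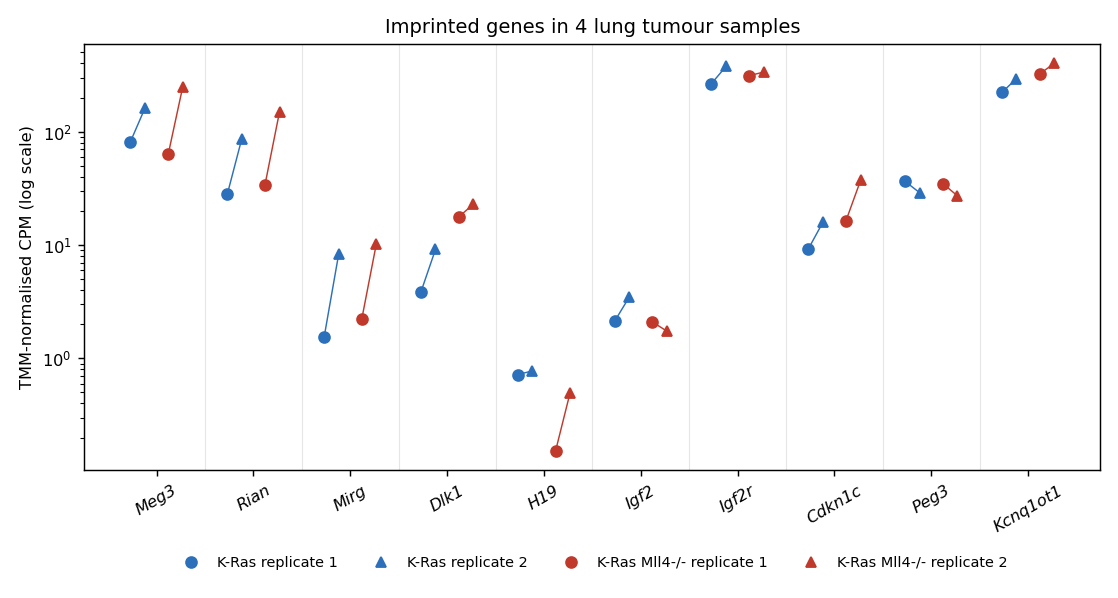
TMM-normalised CPM (log axis) of the 10 imprinted genes in each of the 4 samples, with circles for replicate 1, triangles for replicate 2, blue for K-Ras and red for K-Ras Mll4-/-, and a line joining the samples of a group. Meg3, Rian and Mirg lie higher in replicate 2 of both groups and the groups overlap, while for Dlk1, Cdkn1c and Kcnq1ot1 both K-Ras Mll4-/- samples lie above both K-Ras samples.

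Meg3 encodes a long noncoding RNA that is widely described as a growth suppressor. It was at 81.5 and 161 CPM in K-Ras replicates 1 and 2, and at 63.1 and 248 CPM in K-Ras Mll4-/- replicates 1 and 2. Replicate 2 was the higher sample in both groups, and the groups overlapped, with the lowest and the highest value of the 4 both among the K-Ras Mll4-/- samples. The ratio of replicate 2 to replicate 1 was 1.98 in the K-Ras group (exact 95% binomial interval 1.89 to 2.08, which covers counting error only) and 3.93 in the K-Ras Mll4-/- group (3.73 to 4.15). The median absolute difference between replicates over all genes tested was 0.29 on the log2 scale in the K-Ras group and 0.20 in the K-Ras Mll4-/- group, against 0.99 and 1.98 for Meg3. A difference at least as large as that of Meg3 was seen in 13.9% of tested genes in the K-Ras group and in 1.11% in the K-Ras Mll4-/- group.

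Rian, the noncoding RNA gene downstream of Meg3 that hosts an array of small nucleolar RNAs, was at 28.0 and 86.6 CPM in the K-Ras samples and at 34.2 and 150.4 CPM in the K-Ras Mll4-/- samples. As for Meg3, replicate 2 was the higher sample in both groups. The ratio between replicates was 3.095 in the K-Ras group (95% interval 2.87 to 3.34) and 4.402 in the K-Ras Mll4-/- group (4.10 to 4.73). Mirg, the host of microRNAs at the far end of the maternal transcripts, was at 1.54 and 8.27 CPM in the K-Ras samples and at 2.25 and 10.3 CPM in the K-Ras Mll4-/- samples. Its ratio was 5.38 in the K-Ras group (3.95 to 7.49) and 4.58 in the K-Ras Mll4-/- group (3.47 to 6.16), on 47 to 332 reads per sample. Thus the 3 maternal transcripts shared the direction of the replicate difference in both groups, and in the K-Ras group the intervals of the ratios did not overlap, with Meg3 the smallest and Mirg the largest.

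A neighbour was counted as sharing the difference where replicate 2 exceeded replicate 1 by at least 1 on the log2 scale. Rian and Mirg met this in both groups, and Meg3 met it in the K-Ras Mll4-/- group and lay just under it in the K-Ras group. Among all tested genes 7.92% met it in the K-Ras group, 2.47% in the K-Ras Mll4-/- group and 0.819% in both, or 131 genes. Of the 9 imprinted genes other than Meg3, 3 met it in the K-Ras group (Rian, Mirg and Dlk1), 4 in the K-Ras Mll4-/- group (Rian, Mirg, H19 and Cdkn1c) and 2 in both. Replicate 2 was the higher sample by any amount in both groups for 7 of the 9, against 29% of tested genes, with Igf2 and Peg3 the exceptions. Rian, Mirg and Dlk1 lie in the cluster of Meg3, and Cdkn1c and Kcnq1ot1 share another, so the 7 are not independent genes. H19 counts among them on few reads, with a 95% interval of its ratio in the K-Ras group of 0.59 to 1.975. In the other direction, 0 of the 9 were higher in replicate 1 by at least 1 in both groups. Among tested genes 1.46% were, so the count of 0 was near the background.

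Over the 4 samples, the pattern of Rian was the nearest to that of Meg3 among the 11905 other tested genes with a mean of at least 5 CPM. Nearness was the root mean square difference between the log2 CPM deviations of a gene and of Meg3 from their own means, and it was 0.31 for Rian. Rtl1 ranked 15 (0.43), Mirg 53 (0.53) and Cdkn1c 64 (0.54), while Dlk1 ranked 10095 (1.00). The next genes after Rian were Veph1 on chromosome 3, Cybrd1 on chromosome 2, Kctd14 on chromosome 7 and Btbd11 on chromosome 10, at 0.33, 0.36, 0.37 and 0.38. With 4 samples many genes can come near by their number alone, and these values are a description.

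**Figure D2:**
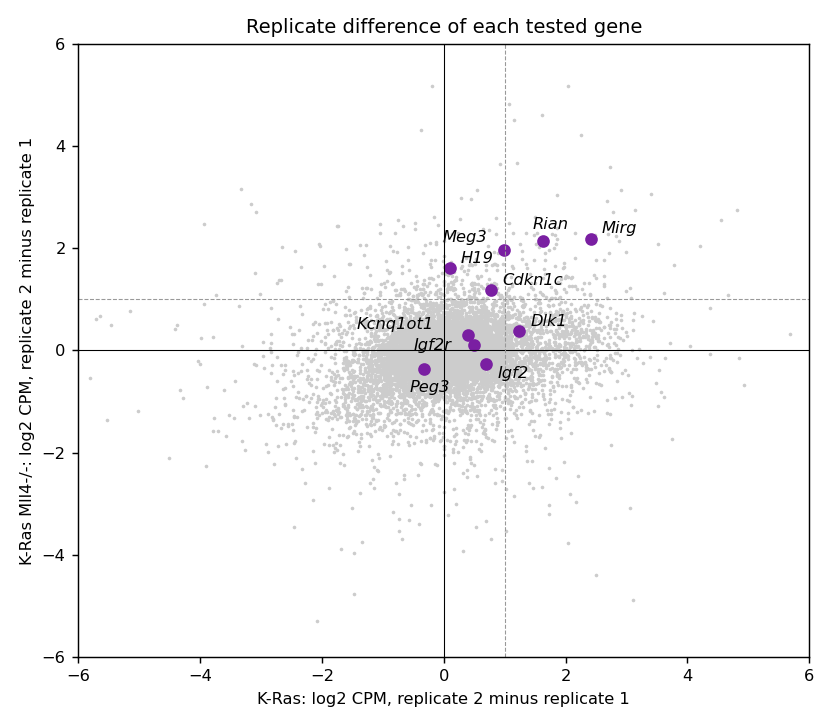
Log2 CPM of replicate 2 minus replicate 1 in the K-Ras group (horizontal) and the K-Ras Mll4-/- group (vertical), with 1 grey point per tested gene, the 10 imprinted genes in purple, and dashed lines at 1. Rian (1.63 and 2.14) and Mirg (2.42 and 2.19) lie beyond both dashed lines, Meg3 (0.99 and 1.98) lies at the edge, and 5 tested genes fall outside the axes.

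The difference between replicates was followed along chromosome 12 in the gene order of RefSeq. On the side before Meg3, 8 of 10 neighbours were tested. Begain, the nearest gene beyond Dlk1 and described as paternally expressed, shared the difference in both groups on few reads (25 and 64 reads in the K-Ras samples, 7 and 24 in the K-Ras Mll4-/- samples). Dlk1 shared it in the K-Ras group only by this threshold, at 1.24 against 0.37 in the K-Ras Mll4-/- group. The other 6 tested genes, Wdr25, Wars, Slc25a47, Slc25a29, Yy1 and Degs2, had differences between -0.69 and 0.59 and none shared it.

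On the side after Meg3, 2 of 10 neighbours were tested, Rtl1 and Mir3070a, and both shared the difference in both groups. Mir3070a did so on few reads, 6 and 19 in the K-Ras samples and 6 and 25 in the K-Ras Mll4-/- samples. It passed the count filter only through the replicate 2 samples, so the filter itself favoured a higher replicate 2 for this row. Its replicate ratio was 2.68 in the K-Ras group (95% interval 1.03 to 8.20) and 3.39 in the K-Ras Mll4-/- group (1.36 to 10.1), so this depth fixes it poorly. Rtl1, a retrotransposon-derived gene needed in the placenta, had 67 and 252 reads in the K-Ras samples and 94 and 435 in the K-Ras Mll4-/- samples, or 2.19 and 6.97 CPM and 3.58 and 13.5 CPM. Its replicate ratio was 3.18 in the K-Ras group (95% interval 2.42 to 4.23) and 3.77 in the K-Ras Mll4-/- group (3.01 to 4.76). Rtl1 lies antisense to maternal transcripts, and the strand setting of the counts is not given in the sources used here, so its reads and theirs cannot be told apart. The remaining 8 neighbours were microRNA rows with 0 to 14 reads per sample, and 3 of them had 0 reads in all samples.

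From Dlk1 to Dio3 the files held 77 rows, of which 59 had reads and 15 were tested. The 15 held Meg3 itself, whose values chose the question. They also held 5 microRNA and 3 small nucleolar RNA rows, which are not independent of the long transcripts that carry them. Of the microRNA rows, Mir3070a, Mir1193 and Mir341 had 0 to 7 reads in the replicate 1 samples and 13 to 31 in the replicate 2 samples. They passed the count filter only through replicate 2, so the filter itself favoured a higher replicate 2 among such rows. In both groups 9 of the 15 passed the threshold of 1, Meg3 not among them, against 0.819% of all tested genes. Replicate 2 was higher in both groups for 13 of the 15, Meg3 included, against 29% of all tested genes. The exceptions were Dio3, which encodes the deiodinase that inactivates thyroid hormone, and its antisense partner Dio3os, at the far end of the cluster. Dio3 had 25 and 16 reads in the K-Ras samples and 10 and 9 in the K-Ras Mll4-/- samples, and Dio3os had 25 and 27 and then 9 and 7. The 95% intervals of the replicate ratio all held equal levels. They were 0.27 to 1.055 for Dio3 and 0.51 to 1.64 for Dio3os in the K-Ras group, and 0.26 to 2.01 and 0.20 to 1.91 in the K-Ras Mll4-/- group. This depth therefore does not fix the direction for either gene. Summed over the 61 microRNA rows, the level was 3.04 and 6.61 CPM in the K-Ras samples and 2.89 and 11.6 CPM in the K-Ras Mll4-/- samples. Summed over the 7 small nucleolar RNA rows of the cluster it was 1.77 and 4.32 CPM in the K-Ras samples and 1.87 and 9.28 CPM in the K-Ras Mll4-/- samples. Both sums were thus higher in replicate 2 of both groups. Among the hairpins shown above, Mir3070b had 13 and 33 reads in the K-Ras samples and 5 and 37 in the K-Ras Mll4-/- samples, and Mir341 had 0 and 13 reads and then 3 and 24.

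**Figure D3:**
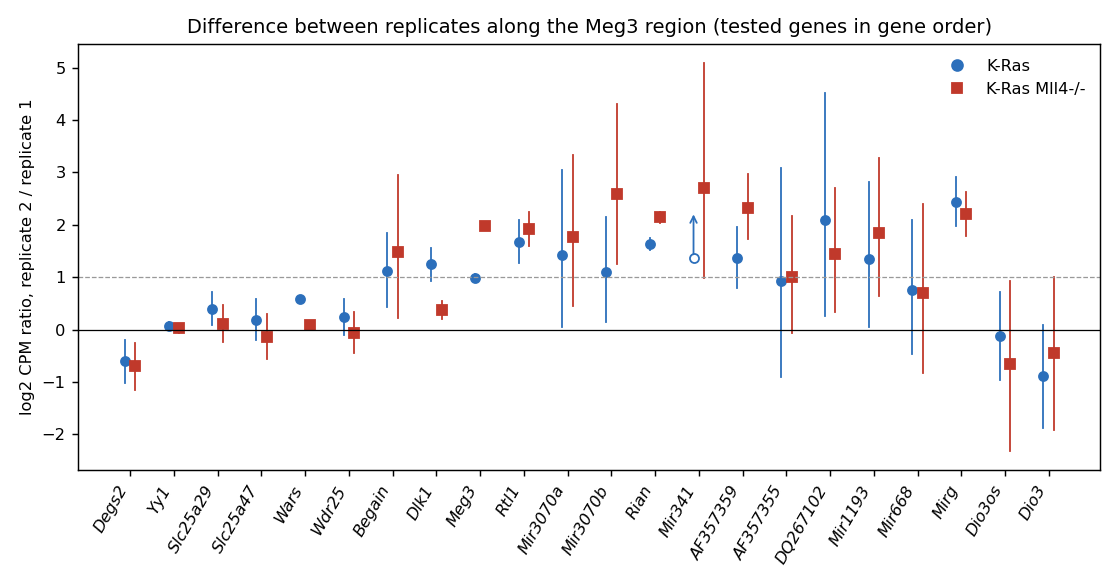
Log2 ratio of CPM in replicate 2 over replicate 1 for the tested genes around Meg3 in RefSeq gene order, with blue circles for K-Ras, red squares for K-Ras Mll4-/- and bars for exact 95% binomial intervals (counting error only). Ratios lie above 0 in both groups from Begain to Mirg and at or below 0 in both groups for Dio3os and Dio3, where the bars cross 0. An open circle with an arrow marks the lower limit for Mir341, which had 0 reads in K-Ras replicate 1.

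The proportions among the maternal transcripts were also compared, since a ratio of counts within a sample does not depend on depth. Per 100 reads on Meg3, Rian had 34.3 (95% interval 31.7 to 37.1) and 53.7 (51.4 to 56.1) reads in the K-Ras samples and 54.1 (49.9 to 58.8) and 60.6 (58.5 to 62.8) in the K-Ras Mll4-/- samples. K-Ras replicate 1 was thus the sample with the least Rian per Meg3 beyond counting error. Mirg had 1.89 and 5.13 reads per 100 in the K-Ras samples and 3.56 and 4.15 in the K-Ras Mll4-/- samples, and again K-Ras replicate 1 was lowest. Dlk1 had 4.73 and 5.66 in the K-Ras samples and 28.0 and 9.23 in the K-Ras Mll4-/- samples, and K-Ras Mll4-/- replicate 1 was highest.

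Markers of other cell types were set beside these differences. The summed leukocyte markers (6 of 6 tested, Ptprc among them) were at 645 and 259 CPM in the K-Ras samples and at 541 and 307 CPM in the K-Ras Mll4-/- samples, lower in the replicate with more Meg3 in both groups. The sum of the mesothelial list was higher in that replicate in both groups, at 93.3 and 205 CPM in the K-Ras samples and 491 and 831 CPM in the K-Ras Mll4-/- samples, through Msln and Krt19, with 4 of 5 markers higher in the K-Ras group and 2 of 5 in the K-Ras Mll4-/- group, while Upk3b, Wt1 and Lrrn4 were at 0.65 CPM or less. The neuroendocrine list was low and also higher in that replicate, at 10.4 and 12.4 CPM and at 7.85 and 10.9 CPM. The sum of the fibroblast list was at 3957 and 2074 CPM in the K-Ras samples and at 1731 and 1753 CPM in the K-Ras Mll4-/- samples. Of its 8 markers, 1 was higher in replicate 2 of the K-Ras group and 6 in that of the K-Ras Mll4-/- group. Club and ciliated lists were highest in K-Ras replicate 2, at 3430 and 778 CPM against at most 702 and 197 CPM in the other samples. Alveolar type 2 markers were at 13783 and 23553 CPM in the K-Ras samples and at 20171 and 21142 CPM in the K-Ras Mll4-/- samples. Of the 6 markers 6 were higher in K-Ras replicate 2 and 3 in K-Ras Mll4-/- replicate 2, where Sftpb was at 10342 CPM against 7045 in replicate 1 while Sftpc was at 5748 against 7740. Pericyte and smooth muscle markers were at 295 and 226 CPM and at 223.5 and 190.5 CPM, with 3 of 7 markers higher in replicate 2 of the K-Ras group and 2 of 7 in that of the K-Ras Mll4-/- group. Alveolar type 1 markers lay between 552 and 764 CPM, endothelial markers between 2481 and 4485 CPM, and erythroid markers between 7.11 and 31.8 CPM with Hba-a1 at 0 in all samples. The part of cell content in the replicate differences was not tested.

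**Figure D4:**
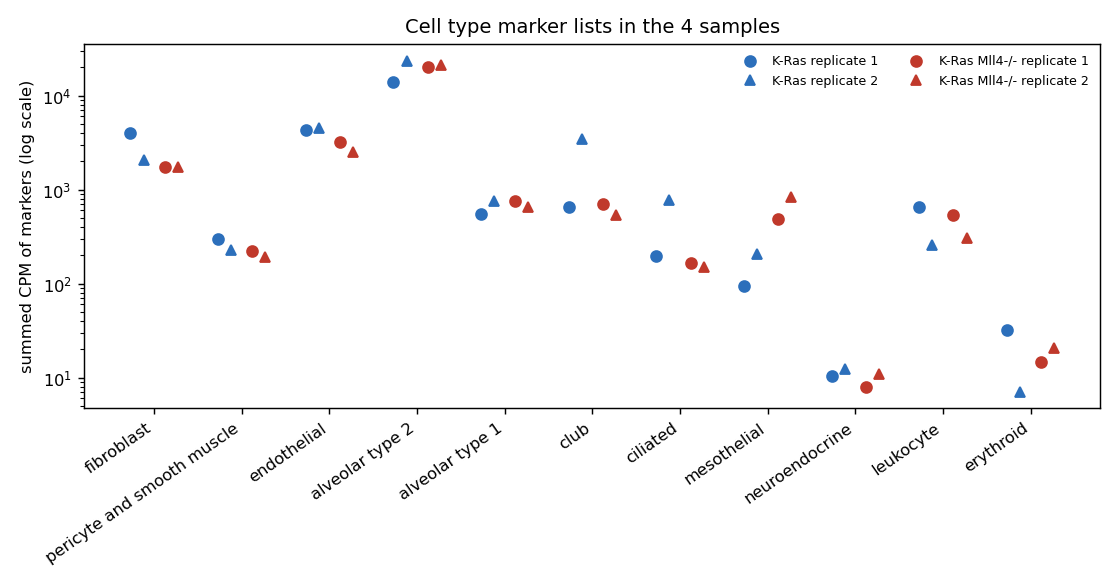
Summed CPM (log axis) of 11 marker lists in each sample, with circles for replicate 1, triangles for replicate 2, blue for K-Ras and red for K-Ras Mll4-/-. The summed leukocyte markers lie lower and the summed mesothelial and neuroendocrine markers lie higher in replicate 2 of both groups, sums being set mainly by the most abundant markers of a list, and the club and ciliated lists stand out in K-Ras replicate 2.

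Between the groups, 0 of the 9 imprinted genes other than Meg3 passed the threshold of 0.05 on the adjusted p of the edgeR quasi-likelihood fit. Of all genes tested 0.0375% did. At an unadjusted p under 0.05 there was 1 of the 9 (Dlk1), against 21.8% of tested genes. The likelihood ratio test of edgeR and DESeq2 each called Dlk1 alone among the 9, where they called 9.39% and 10% of tested genes. A fit with a replicate block called 0 of the 9, against 1.36% of tested genes. The median log2 fold change of all 10, Meg3 included, K-Ras Mll4-/- minus K-Ras, was 0.36, against -0.01 over all genes tested. It was 0.02 without K-Ras replicate 1, -0.235 without K-Ras Mll4-/- replicate 2, and 0.84 and 0.81 without the other replicate of the K-Ras Mll4-/- and K-Ras groups. Groups did not overlap for 5 of the 9 genes other than Meg3, with the K-Ras Mll4-/- samples above for 3 and below for 2. Over all tested genes this held for 58.3%, above for 29.9% and below for 28.5%, so the share among the imprinted genes was near the background.

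Dlk1 encodes a transmembrane protein of the Notch ligand type that restrains differentiation. It was at 3.86 and 9.13 CPM in the K-Ras samples and at 17.7 and 22.9 CPM in the K-Ras Mll4-/- samples. Both K-Ras Mll4-/- samples were above both K-Ras samples, with means of 20.3 ± 3.70 against 6.50 ± 3.73 CPM (SD, n = 2 each). The log2 fold change was 1.64 (SE 0.46) and was not called by the main test (edgeR quasi-likelihood adjusted p = 0.181). It was 1.64 with an adjusted p of 0.011 by DESeq2 and 0.0226 by the edgeR likelihood ratio test. Leaving out single samples kept it between 1.16 and 2.38.

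The maternal transcripts of the same cluster overlapped between the groups. The log2 fold change was 0.36 for Meg3 (SE 0.73), 0.69 for Rian (SE 0.88, edgeR quasi-likelihood adjusted p = 0.674) and 0.36 for Mirg (SE 1.055, edgeR quasi-likelihood adjusted p = 0.869). The direction rested on which samples were kept. Without K-Ras Mll4-/- replicate 2 the values were -0.95, -0.75 and -1.13, and without K-Ras replicate 2 they were 0.92, 1.71 and 2.02. Without K-Ras replicate 1 they were -0.05, 0.10 and -0.39, and without K-Ras Mll4-/- replicate 1 they were 1.04, 1.397 and 1.07.

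Cdkn1c encodes the cyclin-dependent kinase inhibitor p57, a brake on growth of the CIP/KIP family. It was at 9.22 and 15.8 CPM in the K-Ras samples and at 16.5 and 37.2 CPM in the K-Ras Mll4-/- samples, so the highest K-Ras value lay just under the lowest K-Ras Mll4-/- value. The log2 fold change was 1.10 (SE 0.49, edgeR quasi-likelihood adjusted p = 0.276), and it was 0.39 without K-Ras Mll4-/- replicate 2. Of the other members of the family, Cdkn1a had a log2 fold change of 0.02 (SE 0.40) and Cdkn1b of 0.62 (SE 0.14, edgeR quasi-likelihood adjusted p = 0.158), with Cdkn1b at 81.7 and 80.3 CPM in the K-Ras samples and 114 and 134 CPM in the K-Ras Mll4-/- samples. None of the 3 was called by the main test. DESeq2 and the edgeR likelihood ratio test each called 1 of the 3, Cdkn1b, where they called 10% and 9.39% of all tested genes.

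Kcnq1ot1, the long antisense RNA that silences Cdkn1c and its neighbours on the paternal copy, was at 222 and 294 CPM in the K-Ras samples and at 323 and 400 CPM in the K-Ras Mll4-/- samples. The groups did not overlap, and the log2 fold change was 0.49 (SE 0.22, edgeR quasi-likelihood adjusted p = 0.271), moving to 0.31 without K-Ras replicate 1 and 0.32 without K-Ras Mll4-/- replicate 2. Kcnq1, the potassium channel gene it runs through in antisense, was at 31.1 and 44.4 CPM and at 33.3 and 17.4 CPM. Without a stated strand setting, reads where the pair overlap cannot be assigned to either.

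Igf2, a fetal growth factor gene, and H19, its noncoding neighbour, were near the low end of the range. Igf2 had 65 and 125 reads in the K-Ras samples and 55 and 56 in the K-Ras Mll4-/- samples, or 2.13 and 3.46 CPM and 2.10 and 1.74 CPM. Its log2 fold change was -0.55 (SE 0.39, edgeR quasi-likelihood adjusted p = 0.456), moving to -0.85 and -0.165 without K-Ras replicates 1 and 2. H19 had 22 and 28 reads in the K-Ras samples and 4 and 16 in the K-Ras Mll4-/- samples, or 0.72 and 0.77 CPM and 0.15 and 0.50 CPM. Both K-Ras Mll4-/- samples were below both K-Ras samples for each gene, and the log2 fold change of H19 was -1.17 (SE 0.66, edgeR quasi-likelihood adjusted p = 0.354), moving to -0.58 and -2.27 without K-Ras Mll4-/- replicates 1 and 2. The ratio of H19 between the K-Ras Mll4-/- replicates, 3.26, had a counting interval of 1.05 to 13.4, so this depth fixes it poorly.

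Igf2r, the receptor that carries IGF2 to the lysosome for breakdown, was abundant at 265 and 376 CPM in the K-Ras samples and 312 and 336 CPM in the K-Ras Mll4-/- samples. The K-Ras Mll4-/- values lay between the K-Ras values, and the log2 fold change was 0.01 (SE 0.22, edgeR quasi-likelihood adjusted p = 0.977). Airn, the noncoding RNA antisense to Igf2r, was at 8.53 to 11.7 CPM, and reads where the pair overlap cannot be assigned without the strand setting. The sign of Igf2r turned with upper quartile scaling (-0.04) and total count scaling (-0.03). Peg3, a paternally expressed zinc finger gene, was at 36.4 and 28.9 CPM in the K-Ras samples and 34.9 and 27.2 CPM in the K-Ras Mll4-/- samples, and the log2 fold change was -0.08 (SE 0.20, edgeR quasi-likelihood adjusted p = 0.854). It was the member with replicate 1 the higher sample in both groups.

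A wider list of 61 other imprinted mouse genes gave context. Of these 59 had a row in the files, 42 were tested, and 0 were called by the edgeR quasi-likelihood test, with 20 higher and 22 lower and a median log2 fold change of -0.13, which turned to 0.07 without K-Ras replicate 2 and to 0.03 with the filter of 1 CPM in 2 samples. It was -0.196 without K-Ras Mll4-/- replicate 1, -0.06 without K-Ras Mll4-/- replicate 2 and -0.01 without K-Ras replicate 1. At an unadjusted p under 0.05 there were 4 higher and 5 lower, where 21.8% of all tested genes had one. The largest difference was in Sfmbt2, a Polycomb-type gene imprinted in the placenta and host of a microRNA cluster. It was at 1.37 and 0.913 CPM in the K-Ras samples and at 27.8 and 94.3 CPM in the K-Ras Mll4-/- samples. The log2 fold change was 5.74 (SE 0.77, edgeR quasi-likelihood adjusted p = 0.135). Rasgrf1, which encodes an exchange factor that activates RAS proteins, was at 3.34 and 8.22 CPM in the K-Ras samples and at 26.4 and 36.3 CPM in the K-Ras Mll4-/- samples (log2 fold change 2.44, SE 0.49, edgeR quasi-likelihood adjusted p = 0.154). Plagl1, a zinc finger gene that regulates other imprinted genes, was at 6.38 and 14.4 CPM in the K-Ras samples and at 3.39 and 1.77 CPM in the K-Ras Mll4-/- samples (log2 fold change -2.01, SE 0.56, edgeR quasi-likelihood adjusted p = 0.181). DESeq2 and the edgeR likelihood ratio test called these 3 and Tnfrsf23, Mest and Nnat, 6 of the 42 tested, where they called 10% and 9.39% of all tested genes.

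**Figure D5:**
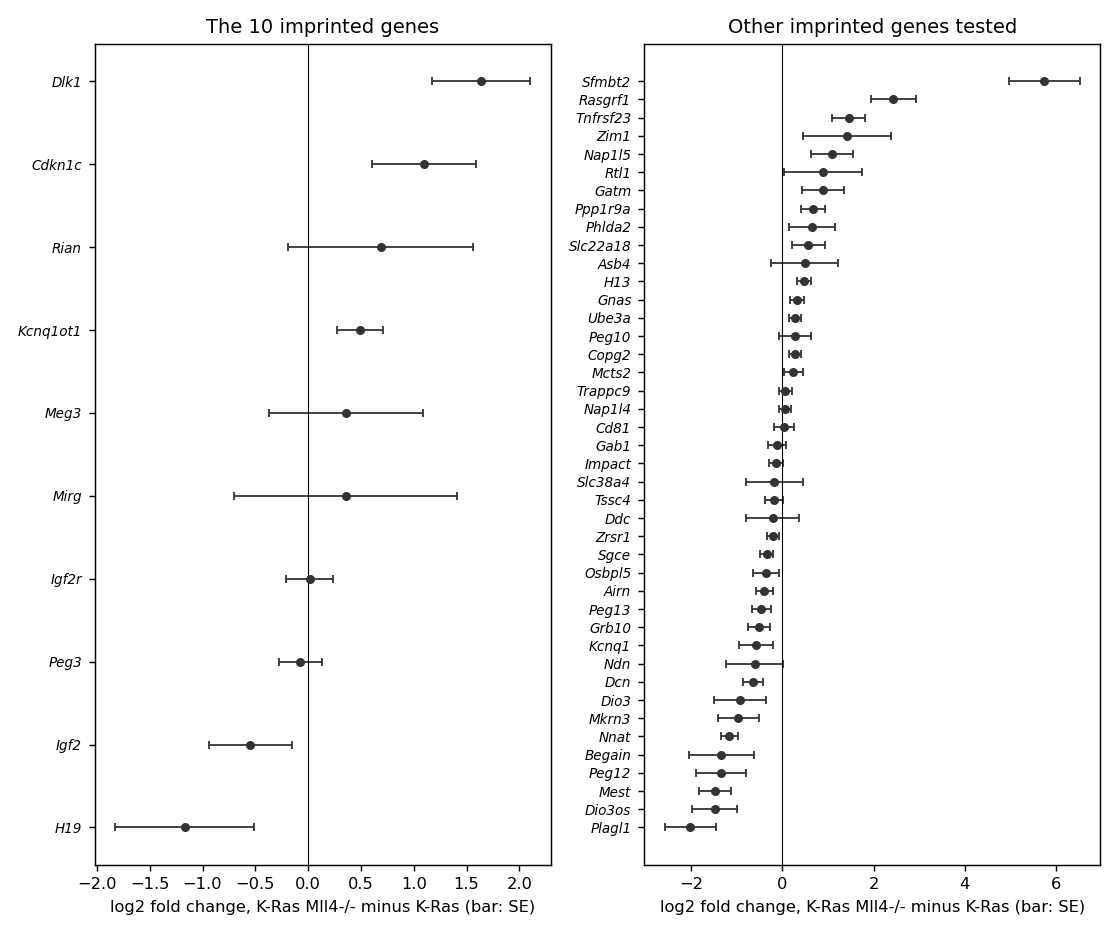
Log2 fold change, K-Ras Mll4-/- minus K-Ras, with its SE as bars, for the 10 imprinted genes (left) and the 42 other imprinted genes tested (right, on a wider axis). Dlk1 (1.64) and H19 (-1.17) mark the ends on the left and Sfmbt2 (5.74) and Plagl1 (-2.01) those on the right. Meg3 is shown as a value without a test, and no other gene shown was called by the edgeR quasi-likelihood test.

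The ligands, receptors, binding proteins and adaptors of the IGF pathway were read from a list of 20 genes that holds Igf2 and Igf2r themselves, of which 18 were tested and 0 were called by the edgeR quasi-likelihood test. With TMM scaling 13 were lower in the K-Ras Mll4-/- samples and 5 of 18 higher, against 1 of 18 higher with upper quartile scaling and 2 of 18 with total counts, and the median log2 fold change was -0.34, or -0.62 without K-Ras Mll4-/- replicate 1 and -0.53 without K-Ras replicate 1. At an unadjusted p under 0.05 there were 4 of 18, all lower, where 21.8% of all tested genes had one. DESeq2 and the edgeR likelihood ratio test each called 2 of 18, against 10% and 9.39% of all tested genes, the binding protein genes Igfbp4 and Igfbp5, named here after their values were seen. Igfbp4 was at 176 and 138 CPM in the K-Ras samples and at 89.9 and 74.9 CPM in the K-Ras Mll4-/- samples, and Igfbp5 at 173 and 165 CPM and at 90.4 and 105 CPM. The largest differences were in Igfals, the acid-labile subunit that stabilises circulating IGF (log2 fold change -1.99, SE 0.75), in Pappa, a protease that cuts IGF binding proteins (-1.21, SE 0.53), and in Igfbp2, an IGF binding protein (-0.96, SE 0.53). Igfals was at 1.08 CPM or less in all samples.

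Factors that keep imprints, a list of 9 genes, were read in the same way, and 8 were tested and 0 called by the edgeR quasi-likelihood test. Their median log2 fold change was 0.09, and leaving out single samples moved it from 0.015 without K-Ras Mll4-/- replicate 2 to 0.173 without K-Ras Mll4-/- replicate 1. At an unadjusted p under 0.05 there was 1, Uhrf1 (against 21.8% of all tested genes). DESeq2 and the edgeR likelihood ratio test also called Uhrf1, 1 of the 8, where they called 10% and 9.39% of all tested genes. Uhrf1, which brings the maintenance DNA methyltransferase to replicated DNA, was at 14.8 and 11.01 CPM in the K-Ras samples and at 23.1 and 29.2 CPM in the K-Ras Mll4-/- samples (log2 fold change 1.02, SE 0.23, edgeR quasi-likelihood adjusted p = 0.158). Trim28, the co-repressor bound by ZFP57, had a log2 fold change of 0.40 (SE 0.16) and Zfp445, a zinc finger gene that guards imprints, of -0.23 (SE 0.12). Zfp57 itself was at 18.6 and 22.1 CPM in the K-Ras samples and at 16.7 and 26.6 CPM in the K-Ras Mll4-/- samples. Over the 8 tested genes the median absolute difference between replicates was 0.13 on the log2 scale in the K-Ras group and 0.14 in the K-Ras Mll4-/- group, with Uhrf1 (-0.42) and Zfp57 (0.67) the farthest from 0. Dppa3 was not tested, at 0 to 3 reads per sample.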

How the data were processed

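RNA from 4 mouse lung tumour samples was measured by RNA sequencing. The authors deposited an unnormalised count of reads for each gene symbol, 1 file per sample, and the submitters' processing notes name CASAVA 1.4, STAR, HTSeq and build mm9. Counting options, strand setting and annotation are not given in the sources used here. Closing tally rows, which name no gene, held 60.1% to 65.6% of the reads and were left out. Of 24391 genes, 24271 matched a RefSeq gene of GRCm38.p6, used for gene order and sequences only.

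Genes were filtered with filterByExpr, scaled by TMM and fitted over all 4 samples with the robust quasi-likelihood test of edgeR 4.0.16 in R 4.3.3, with Benjamini-Hochberg adjustment over 16001 genes. The SE is the log2 fold change divided by the square root of F. Replicate differences are log2 CPM with a prior count of 0.5, with exact binomial intervals from scipy 1.17.1. Alternatives were other scalings, filters and tests (DESeq2 1.42.0, limma 3.58.1), a replicate block and leaving out samples. The main edgeR fit was tested on simulated counts with the same spread set for all genes, which need not match the spread in these data. Named genes were the 10 members, 10 neighbours on each side of Meg3, the 5 nearest patterns, the 3 largest differences of each list, Kmt2d, the CIP/KIP inhibitors and cell type markers. Other genes (Igfbp4, Igfbp5, Tnfrsf23, Mest, Nnat, Zfp57, Dppa3, Kcnq1, Airn, Dio3, Dio3os and hairpins of the cluster outside the neighbours) were named after their values were seen. The members and lists were chosen with earlier results of these data known. The p-values weigh the difference between groups against the spread between these samples, moderated across genes. The labels do not say whether replicates came from separate mice, so the p-values may not speak to variation between mice.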

Additional observations from a re-analysis of the deposited data

How the results depend on the processing

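Against 6 called genes, the loosest count filter gave 44, the edgeR likelihood ratio test 1503, DESeq2 1601 and limma-voom 0 (with 3228 at an unadjusted p under 0.05), and leaving out single samples gave 0 to 528, the highest without K-Ras replicate 1. With the replicate number as a block 217 were called. Rasgrf1 of the wider imprinted list was among them, and 0 of the 9 imprinted genes other than Meg3 were. Deviations of same-numbered samples from their group means correlated at 0.20 across 16001 genes, and with 2 samples a group the numbers were not taken as pairs. Of the 9 members other than Meg3, Dlk1, at 1.64 in each case, was called by the likelihood ratio test and DESeq2, and the others under no alternative run. Igf2r turned to -0.041 with the upper quartile, -0.031 with total counts and -0.003 with the filter of 1 CPM in 2 samples. H19 was not tested under that filter. Leaving out a sample leaves a group with 1 sample, assumed to vary like the other group. It moved the log2 fold change of Meg3 between -0.95 and 1.04, Rian between -0.75 and 1.71, Mirg between -1.13 and 2.02, Igf2r between -0.21 and 0.27 and Peg3 between -0.26 and 0.10. It moved the median of the 10 members between -0.235 and 0.838, of the wider imprinted list between -0.196 and 0.066, of the IGF list between -0.619 and -0.27, and of the imprint maintenance list between 0.015 and 0.173. The wider imprinted list turned to 0.027 with the filter of 1 CPM. The maintenance median was 0.036 with the upper quartile, 0.042 with total counts, 0.103 with the loosest filter and 0.075 with the filter of 1 CPM. The replicate difference of Meg3 in the K-Ras group was 0.89 with total counts. H19 and the microRNA rows were limited by depth. The cause of these changes was not tested.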
